A study of Rattus norvegicus with 9 samples.

Results

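Rab proteins are small GTPases that mark the membranes of a cell and direct the traffic of vesicles between them. A Rab is loaded with GTP by an exchange factor, recruits effectors such as motors and tethers while it is on its membrane, and is switched off by a GTPase-activating protein, after which a dissociation inhibitor carries it back through the cytosol. In the brain, Rabs serve the secretory and endosomal routes of neurons, and a partly different set serves phagosomes, lysosomes and secretory granules in microglia and macrophages.

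The Rab genes were taken as all non-control probes whose gene name was Rab followed by a number and at most one letter from a to d, without the synaptic vesicle genes Rab3a, Rab3b and Rab3c. This gave 52 genes, measured by 68 probes, of 19293 gene symbols and 30367 probes on the array. Each gene was read from 1 probe, the one with the highest mean log2 signal over the 9 arrays. A probe was tested if some group had it well above background on each of its 3 arrays, and 50 of the 52 genes passed. Rab25 reached that level on 0 arrays and Rab17 on 1 array, so neither was tested.

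Gene expression was measured in brain tissue of Sprague Dawley (SD) rats on 9 one-colour Agilent arrays, 3 in each of 3 groups at day 14. Sham rats had the operation without occlusion. I/R rats, called model in the labels, had ischemia of the brain followed by reperfusion. DHI rats, called DH in the labels, had the same ischemia and reperfusion and received Danhong injection, a preparation of 2 medicinal herbs. According to the methods the rats were male, the middle cerebral artery was occluded for 2 h with a filament, solvent or Danhong injection was given daily into the tail vein, and the infarcted hemisphere was taken. The labels give no dose or age. Each array carries a replicate number and the labels do not say more about the animals. The study describes the 3 arrays of each group as biological replicates, so the p-values measure the spread between these samples.

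Values are log2 signals after subtraction of the log2 75th percentile of the same array, so a value of 0 is a probe as bright as that percentile. The 75th percentile lay between 1816.3 and 3464.4 intensity units, and an array had between 75.2% and 78.9% of its probes well above background. The precision is limited by the number of arrays. Markers of neurons, astrocytes, oligodendrocytes, endothelial cells and microglia were well above background on every array. All Sham and all I/R arrays shared a slide and the DHI arrays had another, so slide and treatment cannot be told apart in any comparison with DHI. On 2 arrays the Rab genes stood apart from the rest of their group. I/R 3 was the I/R array nearest to Sham for 19 of the 21 Rab genes called between I/R and Sham. DHI 1 was the DHI array nearest to I/R for 20 of the 21.

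Related Rabs have similar proteins, so the probes are shown for 3 pairs of relatives on which the comparison of relatives turns. The capitals mark the longest run of bases that the probes of a pair share in the same orientation. The positions are those in the array files, on build rn4.
Rab5a, chr9:1516243-1516302, minus strand: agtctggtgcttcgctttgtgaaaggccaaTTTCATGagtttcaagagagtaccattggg
Rab5c, chr10:89653453-89653946, minus strand: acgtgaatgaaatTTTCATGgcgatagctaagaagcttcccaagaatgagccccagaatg
Rab7a, chr4:122203400-122203459, minus strand: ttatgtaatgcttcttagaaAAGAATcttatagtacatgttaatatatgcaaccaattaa
Rab7b, chr13:44629951-44630010, plus strand: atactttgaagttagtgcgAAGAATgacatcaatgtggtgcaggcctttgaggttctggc
Rab27a, chr8:77861002-77861061, plus strand: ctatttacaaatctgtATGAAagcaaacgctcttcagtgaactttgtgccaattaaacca
Rab27b, chr18:66682688-66682747, minus strand: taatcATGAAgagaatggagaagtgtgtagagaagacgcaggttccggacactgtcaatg
The probes of these pairs share runs of 7, 6 and 5 bases out of 60. Over all 16 pairs of relatives compared here the longest shared run was 7 bases. Each probe was compared only with the other probe, not with the transcript of the relative. The runs therefore do not show whether a probe is specific to its gene. The GC content of the 52 probes ranged from 23.3% to 55%. The positions of 8 probes, that of Rab5c among them, span more of the genome than the 60 bases of the probe.

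After ischemia and reperfusion the Rab genes moved in both directions. A gene was called at an unadjusted p under 0.05 with a fold change over 1.5, the thresholds of the methods, here with limma over all 9 arrays. Between I/R and Sham, 21 of the 50 tested Rab genes passed, with 12 up and 9 down after ischemia. That is 42% of the Rab genes, against a percent called of 43.1 among all 23747 probes tested (20.8 up and 22.3 down), so the share of Rab genes called was near that of the array as a whole. The 12 higher genes were Rab32, Rab20, Rab27a, Rab7b, Rab13, Rab38, Rab43, Rab19, Rab34, Rab8a, Rab31 and Rab5c. The 9 lower genes were Rab15, Rab6b, Rab40b, Rab6a, Rab36, Rab33a, Rab4a, Rab2b and Rab22a. The median log2 fold change was -0.18 over the Rab genes and -0.10 over all probes. Without scaling the arrays to their 75th percentile, the median of all probes moved to 0.10 and the split was 14 higher and 6 lower. That is 40% of the Rab genes, against 41.5% of all probes.

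With the p-values adjusted by Benjamini-Hochberg over all probes, 18 of the 50 genes, or 36%, passed 0.05 in limma with a 1.5-fold change, against 31.5% of all probes. The called genes that did not pass were Rab5c, Rab36 and Rab22a, with adjusted p = 0.0523, 0.0641 and 0.0762. The adjusted count was 0 when DHI 3, I/R 1, I/R 2 or any single Sham array was left out, and also when the arrays were not scaled. In each of these settings at most 0.00421% of all probes passed, so the loss was not particular to the Rab genes. For 40 of the 50 genes, or 80%, the values in I/R were all above or all below those in Sham, against 62.5% of all probes.

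**Figure D1:**
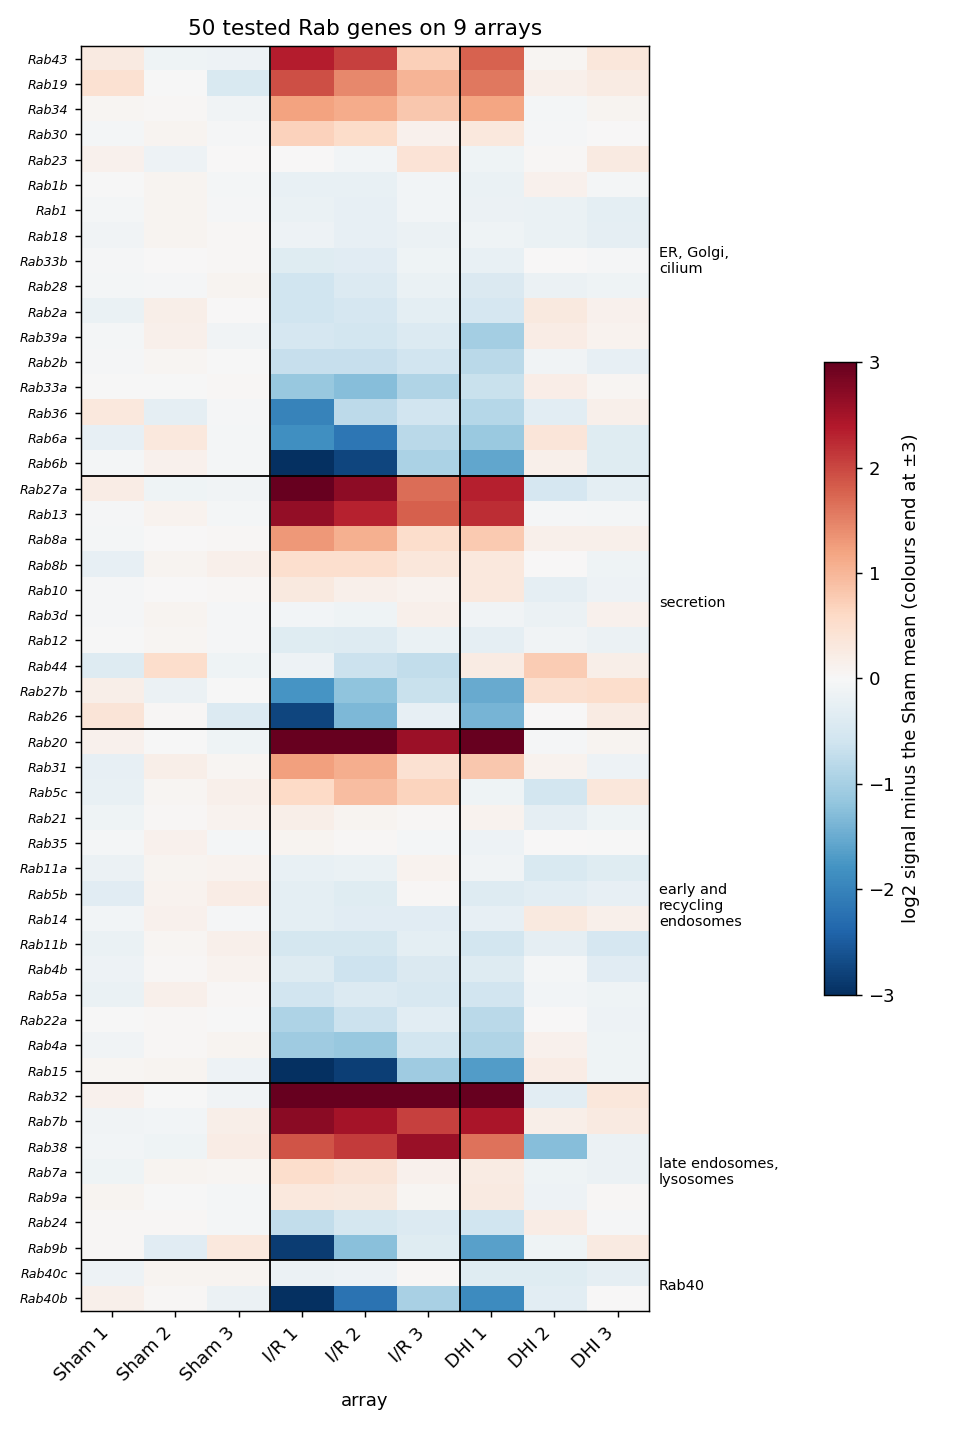
Log2 signal of the 50 tested Rab genes on the 9 arrays, minus the mean of the 3 Sham arrays, in rows ordered by role and then by the change in I/R. Red is higher and blue lower than Sham, with colours ending at 3 log2 units. DHI 1 resembles the I/R arrays, and for most genes I/R 3 has paler colours than I/R 1 and I/R 2, Rab38 being an exception.

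Cell type markers differed between the same arrays. All 12 neuronal markers were lower in I/R than in Sham, and their summed signal, relative to the 75th percentile, was 110 to 119 on the Sham arrays and 11.6 to 57 on the I/R arrays. Of the 14 microglia and macrophage markers 13 were higher, the exception being Cx3cr1, and the summed signal was 29.1 to 34.7 in Sham and 193 to 491 in I/R. The sums overlapped between Sham and I/R for astrocytes, at 182 to 190 and 164 to 205, and for oligodendrocytes, at 152 to 180 and 118 to 175. Of the astrocyte markers 4 were higher and 2 lower of 10, or 60% called against 43.1% of all probes. Those of endothelial cells summed to 7.24 to 8.8 in Sham and 9.82 to 14.8 in I/R, which do not overlap. Of these 10 markers 4 were higher and none lower, or 40% called against 43.1% of all probes. Taken singly, 60% of the endothelial markers did not overlap, against 62.5% of all probes. In bulk tissue fewer cells of a type and less RNA per cell cannot be told apart, and the part of cell makeup in the Rab changes was not tested.

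Among the Rabs of late endosomes, lysosomes and related organelles, 3 of 7 genes rose in I/R and none was called lower, or 42.9% called against 43.1% of all probes. Rab32 serves the making of lysosome-related organelles and acts in the defence of phagocytes against bacteria. Its log2 signal was -5.20, -5.34 and -5.44 on the Sham arrays, -0.85, -1.02 and -2.27 on the I/R arrays, and -1.31, -5.65 and -4.99 on the DHI arrays. All I/R arrays and DHI 1 were far above Sham, while DHI 2 and DHI 3 lay near Sham. The I/R change was 3.95 ± 1.02 on the log2 scale (limma SE, n = 3 a group, adjusted p = 0.0396), or 15.4-fold, and the other Rab32 probe also gave 3.95.

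Rab38, the closest relative of Rab32, is known from the pigment granules of melanocytes. Its signal was -6.77, -6.82 and -6.47 in Sham, -4.79, -4.60 and -4.09 in I/R, and -5.05, -7.96 and -6.86 in DHI. I/R and Sham did not overlap, and all 3 DHI arrays were below the I/R arrays. It rose by 2.19 ± 0.63 (SE) in I/R with adjusted p = 0.041, and it was not well above background on 1 of the 9 arrays. Rab7b directs transport from late endosomes to the trans-Golgi network. Its signal was -4.83, -4.80 and -4.55 in Sham, -2.01, -2.22 and -2.66 in I/R, and -2.28, -4.54 and -4.46 in DHI, so that DHI 1 lay among the I/R arrays and DHI 2 and DHI 3 just above the highest Sham array. Rab7b rose by 2.42 ± 0.56 in I/R. Of the rest, Rab7a, the general Rab of late endosomes, and Rab9a, Rab9b and Rab24 were not called, with log2 fold changes from -1.49 for Rab9b to 0.35 for Rab7a.

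Among the Rabs of secretion and exocytosis, 3 of 10 genes rose and none was called lower, or 30% called against 43.1% of all probes. Rab27a docks secretory granules and lysosome-related organelles at the plasma membrane. It had log2 signals of -1.62, -1.97 and -1.95 in Sham, 1.29, 0.83 and -0.17 in I/R, and 0.48, -2.35 and -2.15 in DHI. DHI 2 and DHI 3 were below every Sham array, and DHI 1 was within the I/R range. The I/R change was 2.50 ± 0.73 (SE, adjusted p = 0.0414). Rab13, a Rab of cell junctions and of transport to the cell surface, had -2.23, -2.10 and -2.26 in Sham, 0.45, 0.13 and -0.40 in I/R, and 0.01, -2.22 and -2.25 in DHI. DHI 1 was within the I/R range and DHI 2 and DHI 3 within the Sham range, and the I/R change was 2.25 ± 0.57. Rab8a, which carries cargo to the surface and to cilia, rose by 0.96. The genes not called were Rab8b, Rab10, Rab3d, Rab12, Rab44, Rab27b and Rab26, from 0.45 for Rab8b to -1.45 for Rab26. Rab26, a Rab of secretory vesicles, had I/R arrays at 0.46, 1.87 and 2.97 and Sham arrays at 3.60, 3.25 and 2.81, which overlap.

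Of the Rabs of early and recycling endosomes 3 were higher and 3 lower of 14 tested, or 42.9% called against 43.1% of all probes. Rab20 is found on endosomes and on maturing phagosomes of macrophages. Its signal was -5.82, -5.96 and -6.09 in Sham, -2.53, -2.36 and -3.40 in I/R, and -2.71, -5.98 and -5.87 in DHI. DHI 1 was with the I/R arrays and the other DHI arrays were inside the Sham range. Rab20 rose by 3.20 ± 0.80 (SE, adjusted p = 0.0396), or 9.16-fold, and its other probe gave 3.15. Rab31, which carries cargo from the trans-Golgi network to endosomes, had 2.27, 2.67 and 2.57 in Sham, 3.74, 3.60 and 2.95 in I/R, and 3.30, 2.61 and 2.35 in DHI. Its groups did not overlap between Sham and I/R, and the rise of 0.93 ± 0.30 lost its call without Sham 1 (0.81) or without I/R 1 (0.77).

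Rab5c is one of 3 Rab5 forms that organise the early endosome, and it is named in the study. Its values were -1.45, -1.17 and -1.07 in Sham, -0.64, -0.31 and -0.56 in I/R, and -1.36, -1.78 and -0.88 in DHI. Every I/R array was above every Sham and every DHI array, which makes Rab5c one of the genes on which DHI 1 did not lie with I/R. The I/R change was 0.72 ± 0.24, and the call was lost without Sham 1 (0.62) or without I/R 2 (0.63).

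On the lower side, Rab15 is a Rab of early and recycling endosomes in neurons. It gave 4.03, 4.05 and 3.83 in Sham, 0.52, 1.16 and 2.90 in I/R, and 2.29, 4.20 and 3.84 in DHI. I/R 3 kept more signal than the other I/R arrays, and DHI 1 lay inside the I/R range. Rab15 fell by 2.44 ± 0.67 on the log2 scale (SE, adjusted p = 0.0404). Rab4a, which acts in rapid recycling, had a change of -0.92. Rab22a, a Rab of endosomal sorting, had -0.55, -0.50 and -0.53 in Sham, -1.46, -1.18 and -0.84 in I/R, and -1.33, -0.52 and -0.67 in DHI. Its change of -0.63 ± 0.25 rests on 1 of its 2 probes. The other Rab22a probe gave 0.05, the mean of both gave -0.29, the value without scaling was -0.43, and the call was lost without any one of the Sham arrays, I/R 1 or I/R 2, with values from -0.64 to -0.48. The genes not called were Rab21, Rab35, Rab11a, Rab5b, Rab14, Rab11b, Rab4b and Rab5a, from 0.10 for Rab21 to -0.49 for Rab5a.

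Of the 17 Rabs of transport at the endoplasmic reticulum, the Golgi and the cilium, 5 were lower and 3 higher, or 47.1% called against 43.1% of all probes. Rab6b is the neuronal form of Rab6, which acts in traffic at the Golgi. Its signal was 5.31, 5.50 and 5.33 in Sham, 2.04, 2.61 and 4.43 in I/R, and 3.83, 5.54 and 5.02 in DHI. No I/R array reached the Sham range, and DHI 1 was again inside the I/R range. Rab6b fell by 2.35 ± 0.64 on the log2 scale (SE, adjusted p = 0.0403), with -1.80 for its other probe. Rab6a, the widely expressed form, changed by -1.61, with -1.37 for a second probe and 0.13 for another. Rab36, Rab33a and Rab2b, all linked to the Golgi, changed by -1.12, -1.11 and -0.65. Rab36 lost its call without Sham 1 (-0.97), Sham 3 (-1.14) or I/R 1 (-0.69), without scaling (-0.93) and in the methods' t-test. Rab2b fell short of 1.5-fold without scaling (-0.45), with quantile normalization and with the authors' table (both -0.54). Rab43 and Rab19, also Golgi Rabs, and Rab34, which acts in lysosome positioning and the making of cilia, rose by 1.71, 1.47 and 1.04. With normexp background correction Rab19 was at 0.47 and lost its call. The 9 others ranged from -0.48 for Rab39a to 0.46 for Rab30. Rab1 (Rab1a in RefSeq), Rab1b, Rab2a and Rab18, which serve the early secretory route, were among these.

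The Rab40 proteins carry a SOCS box and act as adaptors of ubiquitin ligases. Rab40b had log2 signals of 1.51, 1.40 and 1.18 in Sham, -1.99, -0.84 and 0.40 in I/R, and -0.52, 1.04 and 1.38 in DHI, and it fell by 2.17 on the log2 scale in I/R. It is shown with its values for contrast with Rab40c, which stayed uncalled at -0.10. Rab40c had -4.31, -4.08 and -4.07 in Sham and -4.34, -4.30 and -4.13 in I/R, which overlap.

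A gene that was not called may still have changed. For 9 of the 29 uncalled genes the 95% interval of the change in I/R lay within 1.5-fold in both directions, and these were Rab1, Rab1b, Rab3d, Rab11a, Rab18, Rab21, Rab23, Rab35 and Rab40c. Rab35, an endosomal recycling Rab, had the change nearest to 0, at 0.01 with an interval from -0.30 to 0.32. For the other 20 the interval reached past 1.5-fold. Rab27b, for example, had an interval from -2.47 to 0.03.

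Across the 12 genes with several tested probes there were 15 further probes. Of these, 2 gave the opposite sign to the brightest probe, the ones of Rab22a and Rab6a described above. The call differed for 3 probes, these and a Rab2b probe at -0.58, just short of the fold change threshold.

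**Figure D2:**
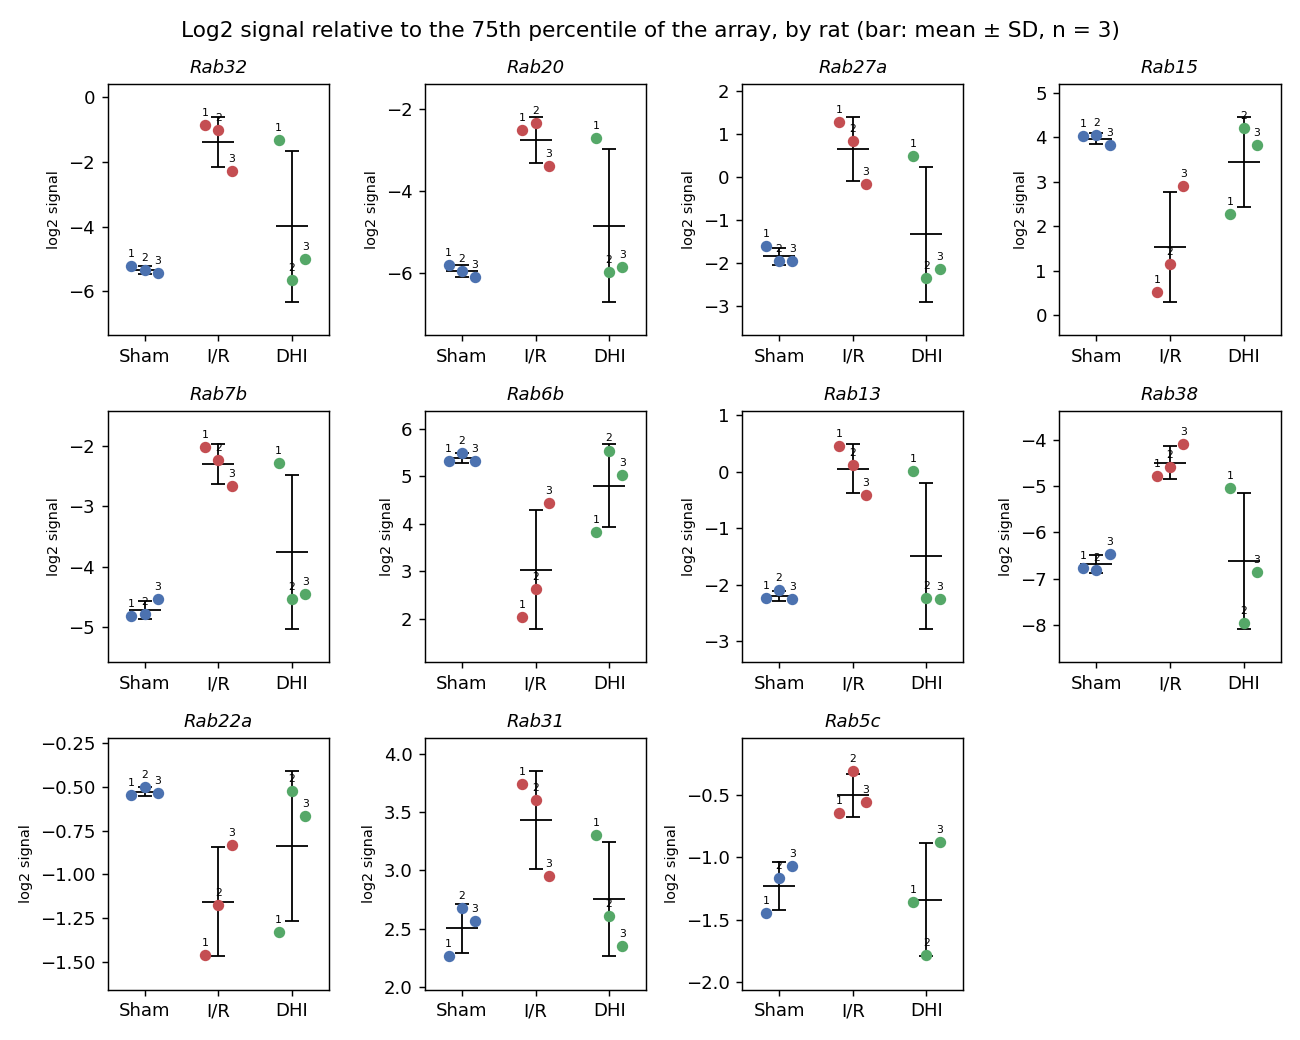
Log2 signal, after subtraction of the log2 75th percentile, of 11 Rab genes on each Sham, I/R and DHI array; the small numbers are replicate numbers, and bars show mean ± SD (n = 3). For 10 of the genes DHI 1 lies apart from DHI 2 and DHI 3 toward the I/R arrays, the exception being Rab5c.

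Relatives were compared by the difference of their log2 signals on each array. For 12 of 16 pairs the differences did not overlap between I/R and Sham. Since 62.5% of single probes did not overlap either, and the share among other pairs of genes was not computed, the count is a description only. With 3 arrays against 3 the exact two-sided permutation test cannot go below p = 0.1, the value of these 12 pairs, and the adjusted p over the 16 pairs was 0.133. Rab27a and Rab27b stood furthest apart, with changes of 2.50 and -1.22 in I/R and a difference between them of 3.71 ± 0.75 (SE of the difference over arrays). The signal of Rab27b was -0.77, -1.11 and -0.95 in Sham, -2.72, -2.14 and -1.62 in I/R, and -2.45, -0.47 and -0.42 in DHI. All I/R arrays of Rab27b were below all Sham arrays, although it was not called.

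Rab7b changed by 2.42 and Rab7a by 0.35, a difference of -2.08 ± 0.11 for Rab7a minus Rab7b. Rab10 and Rab13 differed by -2.06 ± 0.21, and Rab40b and Rab40c by -2.07 ± 0.65. Rab32 minus Rab38 gave 1.75 ± 0.67. In 5 pairs the changes had opposite signs. These were Rab27a and Rab27b, Rab9a and Rab9b, Rab22a and Rab31, Rab5a and Rab5c, and Rab5b and Rab5c.

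Rab5a had -0.07, 0.29 and 0.16 in Sham, -0.44, -0.28 and -0.37 in I/R, and -0.45, 0.04 and 0.01 in DHI. Its change was -0.49 where that of Rab5c was 0.72, and the difference was -1.21 ± 0.09. Rab22a and Rab31 are the opposite pair in which both genes were called, with a difference of -1.56 ± 0.43 that rests on the brighter Rab22a probe. The pairs whose differences overlapped were Rab1 and Rab1b, at 0.00 ± 0.03, and Rab2a and Rab2b, Rab6a and Rab6b, and Rab8a and Rab8b. Rab1 and Rab1b changed by -0.18 and -0.17.

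**Figure D3:**
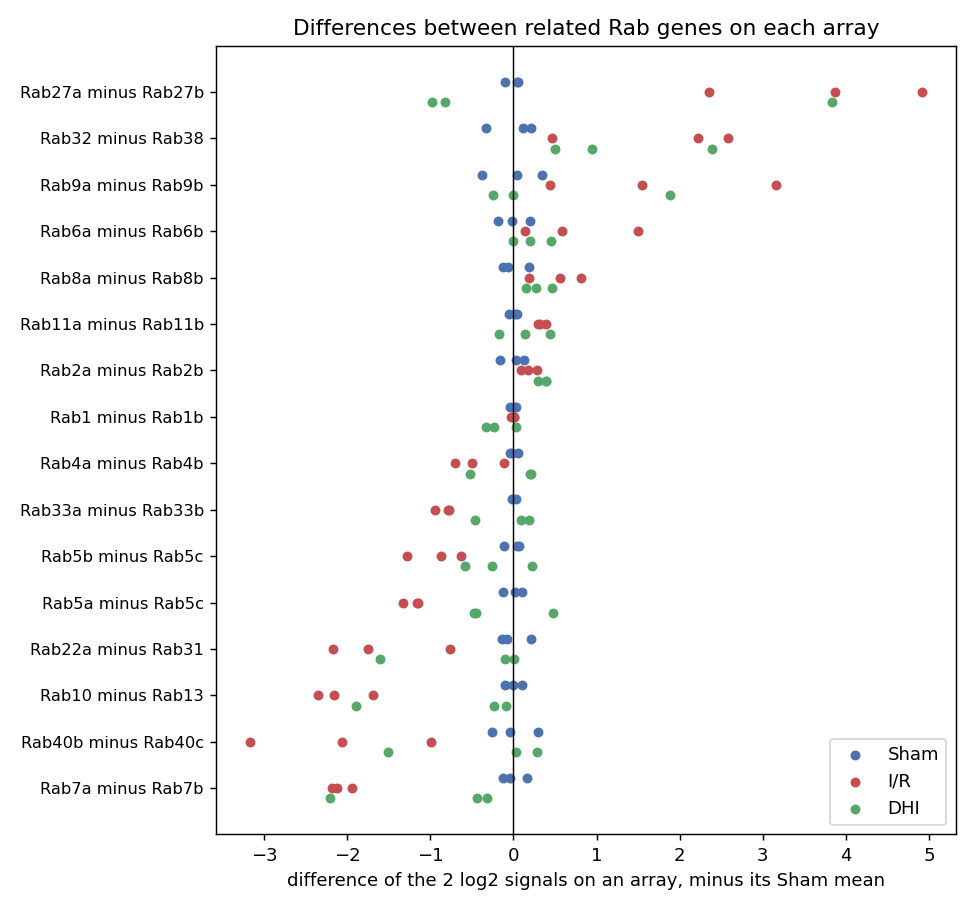
Difference between the log2 signals of 2 related Rab genes on each array, minus the mean difference on the Sham arrays, for 16 pairs; each point is an array. For 12 pairs no I/R point lies within the Sham points, and Rab27a minus Rab27b is furthest to the right.

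With Danhong injection 13 of the 50 Rab genes were called against I/R, 5 higher and 8 lower in DHI. This is 26%, against a percent called of 21.9 among all probes (11.5 up and 10.5 down). The genes lower in DHI were Rab32, Rab38, Rab20, Rab27a, Rab13, Rab7b, Rab5c and Rab8a, and those higher were Rab15, Rab6b, Rab6a, Rab33a and Rab44. None of the 13 passed an adjusted p of 0.05 in limma, where all had adjusted p = 0.196, and the share of all probes that passed was 0.00421%, a single probe. At an unadjusted p under 0.05 there were 13 genes in limma. The methods' t-test called 3 genes, or 6% against 1.97% of all probes, none of them after adjustment.

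The count depended on single arrays. Without DHI 1, 26 Rab genes were called (52%) and 23 passed the adjusted threshold (46%), and among all probes the shares rose likewise, to 45.2% and 40.1%. The count was 4 (8%) when I/R 1 was left out, 4 (8%) for I/R 2, 3 (6%) for DHI 2 and 4 (8%) for DHI 3. Among all probes the shares called were 5.82%, 6.99%, 3.95% and 4.75% in the same order. Without scaling the median of all probes moved from 0.10 to -0.36 and the calls were 0 higher and 19 lower. That is 38% of the Rab genes, against 31.3% of all probes. The 5 genes called higher thus depend on the scaling. Rab38, Rab5c and Rab33a kept their calls when any single array was left out. The I/R arrays stand in this comparison and in that with Sham, so the values given side by side are not independent.

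Rab32 changed by -2.60 ± 1.02 (limma SE, n = 3 a group) between I/R and DHI, beside 3.95 between Sham and I/R. The 3 DHI arrays were not alike, as DHI 1 at -1.31 was within the I/R range and DHI 2 and DHI 3 were far below it. Rab38 changed by -2.13 ± 0.63, Rab20 by -2.09 ± 0.80 and Rab27a by -1.99 ± 0.73. Of these, Rab38 had all DHI arrays below all I/R arrays. With normexp background correction its change was -0.51 and it lost its call. Rab13 and Rab7b changed by -1.54 and -1.46, and Rab5c by -0.83 ± 0.24.

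In the other direction, Rab15 changed by 1.91 ± 0.67 and Rab6b by 1.77 ± 0.64 in DHI against I/R, beside -2.44 and -2.35 in I/R against Sham. Rab33a had 0.36, 0.37 and 0.40 in Sham, -0.76, -0.89 and -0.53 in I/R, and -0.29, 0.57 and 0.45 in DHI. All its DHI arrays were above all its I/R arrays, with a change of 0.97 ± 0.24. Rab44, an unusually large Rab, was called in this comparison only, at 0.90, and its arrays at -6.16, -6.64 and -6.74 in I/R and -5.76, -5.23 and -5.83 in DHI did not overlap. The I/R and DHI arrays did not overlap for 7 of the 50 genes, or 14%, against 9.54% of all probes.

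Over the 21 genes called between I/R and Sham, DHI 1 lay inside or beyond the I/R range for 18. DHI 2 lay inside or beyond the Sham range for 16 and DHI 3 for 10, with 11 more of DHI 3 between the ranges. The median position on a scale where the Sham mean is 0 and the I/R mean is 1 was 0.93 for DHI 1, -0.01 for DHI 2 and 0.09 for DHI 3. The neuronal sum was 37.9 on DHI 1, 123 on DHI 2 and 95.3 on DHI 3, and the microglia and macrophage sum was 277, 37.7 and 47.1, so that DHI 1 stood apart in both. The other sums differed less between the DHI arrays in proportion. On DHI 1, DHI 2 and DHI 3 they were 158, 182 and 164 for astrocytes, 168, 214 and 208 for oligodendrocytes, and 10.4, 9.58 and 7.73 for endothelial cells. For oligodendrocytes DHI 1 lay within the Sham range of 152 to 180 and the I/R range of 118 to 175, and DHI 2 and DHI 3 lay above both. For endothelial cells DHI 1 was the only DHI array within the I/R range of 9.82 to 14.8. The part of cell makeup in the Rab differences was not tested.

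**Figure D4:**
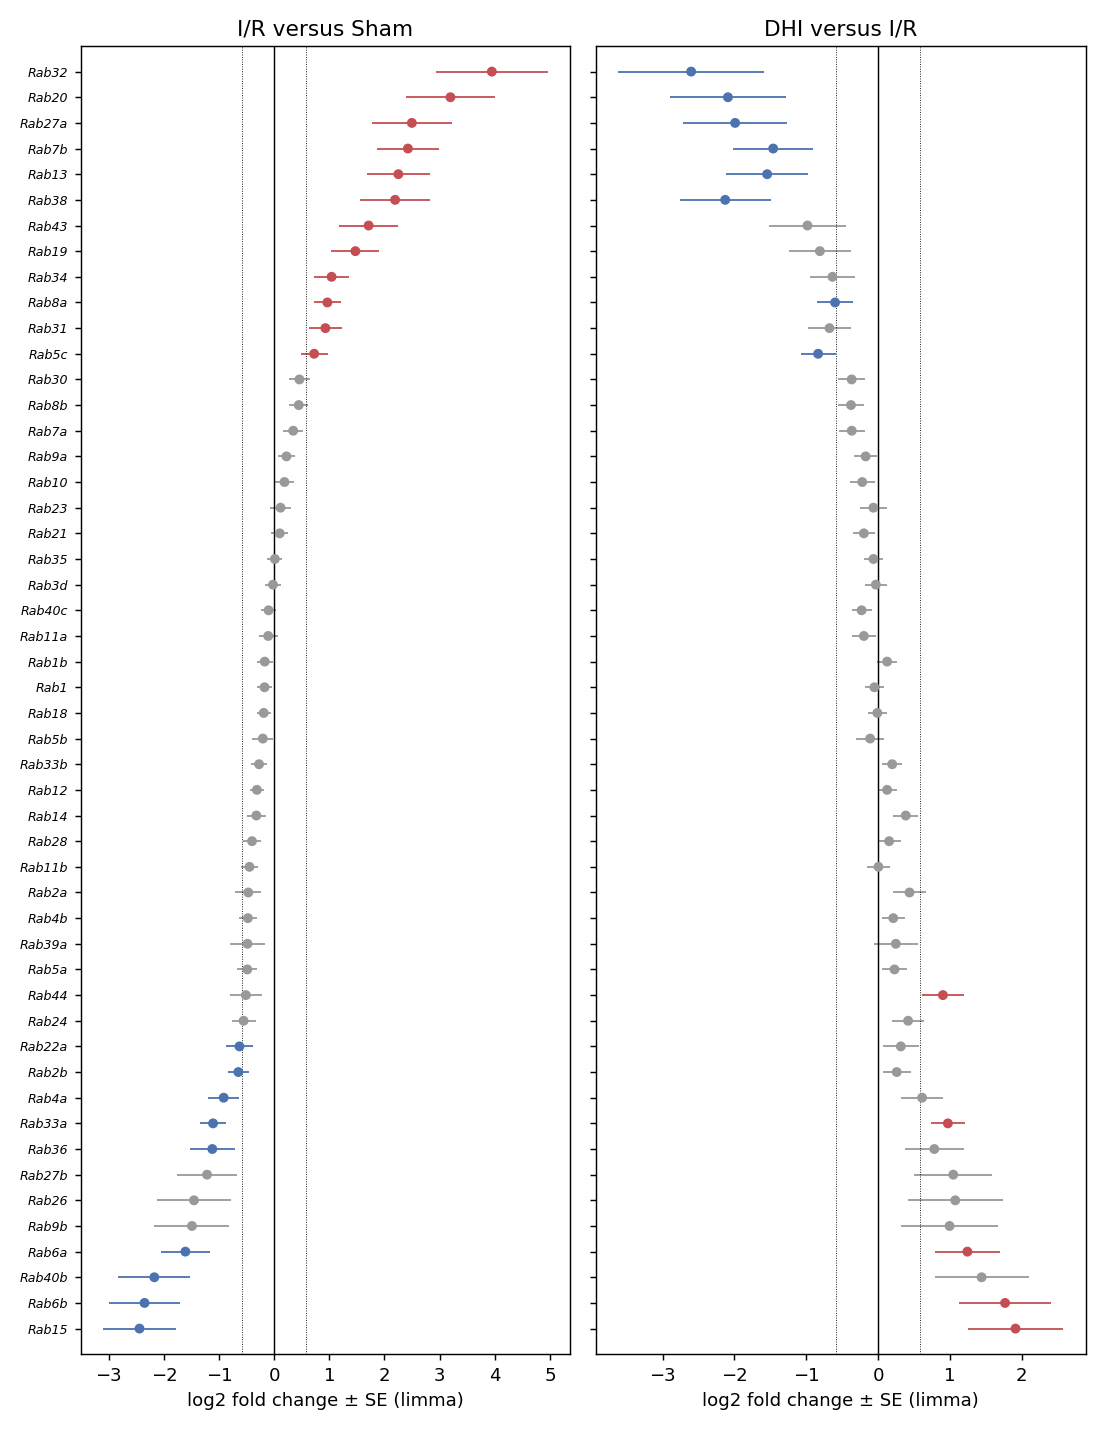
Log2 fold change ± SE (limma) of the 50 tested Rab genes for I/R against Sham on the left and DHI against I/R on the right, ordered by the left panel. Red genes were called higher and blue genes lower, grey genes were not called, and the dotted lines mark a 1.5-fold change. Both panels use the same I/R arrays.

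DHI and Sham were compared directly as well. No Rab gene was called, against 3.58% of all probes (2.52 up and 1.06 down). At an unadjusted p under 0.05 in limma there were 2 genes, Rab11b and Rab40c, at -0.44 and -0.33, both short of the fold change threshold, and the methods' t-test called none. For 16 genes the 95% interval lay within 1.5-fold. For the other 34 it reached further. Rab32 was 1.34 ± 1.02 and Rab20 1.1 ± 0.80 above Sham in this comparison, and without DHI 1 the values were 0.00 ± 0.43 and 0.03 ± 0.30. The groups did not overlap for 9 genes, or 18%, against 18.6% of all probes.

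The proteins that act on Rabs were followed through 4 lists, of which 91 genes had a probe and 89 were tested. Dennd2c and Rab11fip1 did not pass the filter on dim probes. Of the 89, 36 were called between I/R and Sham, 14 higher and 22 lower, or 40.4% against the 43.1% of all probes. Among exchange factors 7 were higher and 4 lower of 19, or 57.9%. Dennd2d, a DENN domain exchange factor, had -6.10, -6.93 and -6.17 in Sham, -1.15, -1.52 and -2.76 in I/R, and -1.89, -6.94 and -5.77 in DHI. It rose by 4.59 ± 1.15 (limma SE, adjusted p = 0.0396), and DHI 1 lay within the I/R range. Rab3il1, an exchange factor of Rab8 and Rab3, rose by 2.83, and Rin3, one for Rab5 and Rab31, by 2.75.

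Of the GTPase-activating proteins 1 was higher and 5 lower of 26, or 23.1%, below the 43.1% of all probes. Tbc1d2b rose by 1.88, whereas Tbc1d30 and Sgsm1 fell by 1.97 and 1.76. Of the effectors 6 were higher and 11 lower of 36, or 47.2%. Exph5 and Sytl3 both bind Rab27, and their fitted changes had opposite signs. Exph5 was at -5.16, -4.35 and -4.94 in Sham and at -8.44, -8.08 and -8.24 in I/R, where none of the arrays had it well above background. Its I/R level was thus not well measured, and Exph5 was estimated as 10.8-fold lower in I/R (fitted change -3.44, limma adjusted p = 0.0396). A floor on each array at the dimmest probe well above background did not alter this estimate. Exph5 passed the filter on dim probes only through Sham and DHI, the groups where it was high. Its p-value therefore lends the fall no support. Sytl3 was at -8.87, -9.64 and -9.28 in Sham and at -6.04, -5.74 and -6.13 in I/R. Since no Sham array had it well above background, each was set to its own signal or, if higher, that floor. Sytl3 was then at least 7.27-fold higher in I/R (fitted change 3.29, limma adjusted p = 0.0448). It passed the filter on dim probes only through I/R, the group where it was high, so this p-value lends the rise no support. Unc13d, the Munc13 form that works with Rab27a in granule release, rose by 3.10 ± 0.67.

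In the list of prenylation and the membrane cycle, Chml, a Rab escort protein, had log2 signals of -3.34, -3.56 and -3.14 in Sham and -4.17, -4.49 and -4.75 in I/R. These did not overlap, and the change was -1.12 ± 0.32 (limma SE, adjusted p = 0.0409).

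Between DHI and I/R, 23 of the 89 regulators and effectors were called, 14 higher and 9 lower, or 25.8% against 21.9%. None passed the adjusted threshold in limma, with 26 at an unadjusted p under 0.05 and 0 called by the methods' t-test. The count was 39 without DHI 1, and it was 5 when I/R 1 was left out, 4 for I/R 2, 3 for DHI 2 and 4 for DHI 3. Among all probes the shares called were 45.2%, 5.82%, 6.99%, 3.95% and 4.75% in the same order. Dennd2d changed by -3.06 ± 1.15 and Unc13d by -1.76 ± 0.67. Exph5 was estimated as 6.01-fold higher in DHI, with no I/R array well above background. Between DHI and Sham 3 were called, or 3.37% against 3.58% of all probes. None of the 3 passed the adjusted threshold in limma, where all had adjusted p = 0.709, and no probe of the array did. The 3 were Sytl3 at least 4.59-fold higher, with 2 of the 3 DHI arrays well above background, Mical1 higher at 1.40 and Tbc1d13 lower at -0.83. The count ranged from 0 to 9 when single arrays were left out. It was 0 without Sham 2 or Sham 3, and 9 without DHI 2, where 1.45%, 2.35% and 10.6% of all probes were called.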

How the data were processed

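RNA of each brain was labelled with Cy3 and hybridised to an Agilent rat array. The deposited files hold the intensity of each spot as given by Agilent Feature Extraction 10.7.1.1 (gProcessedSignal, background-subtracted), with probe positions on rn4. The authors also deposited a table of normalized log2 values, used as an alternative; its columns had medians of 7.57 to 7.58 and followed quantile-normalized log2 intensities in direction and order, and the normalization is not given in the sources used here.

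Outlier spots and controls were left out, log2 intensity was reduced by the log2 of the 75th percentile of the array, and replicate spots were averaged to 1 value a probe. The 23747 probes that passed the background filter in some group were fitted with limma 3.58.1 in R 4.3.3 over 9 arrays, with 6 residual degrees of freedom and group as the only term; 23 tested probes lacked a value on some array. The fit was tested on simulated data. The Rab genes, roles, pairs and lists were chosen with earlier results of these data known. Genes given in full were the 8 with the largest called change in I/R without overlap, the 6 largest in DHI, pairs called in opposite directions and Rab5c, with up to 3 of each list of regulators; Rab40b, Rab40c, Rab26, Rab27b, Rab33a, Rab44, Rab5a, Mical1 and Tbc1d13 were added after their values were seen. The counts of the list of prenylation and the membrane cycle are not reported here. Of the 52 genes 50 matched RefSeq by accession.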

Additional observations from a re-analysis of the deposited data

How the results depend on the processing

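The alternatives were no scaling, quantile normalization, the authors' table, normexp background correction, no filter or a filter on all 9 arrays, a model of the 2 groups compared, the methods' t-test, a replicate block, the mean of all probes of a gene and the omission of each array. No gene called between I/R and Sham or between DHI and I/R changed sign under any of them. Of 416 fold changes recomputed for the genes given in full, 354 kept their direction and side of the threshold, 56 lost a call and 6 gained one. Between I/R and Sham the count of Rab genes called was 17 to 26 without single arrays, and the adjusted count of 18 became 0 without scaling, 9 without the filter and 0 to 22 without single arrays. Of all probes, 31.7% to 48.6% were called without single arrays. The adjusted share of all probes, 31.5%, became 0.00421% without scaling, 16.5% without the filter and 0% to 43.2% without single arrays. Between DHI and I/R the count of 13 became 6 in the model of the 2 groups, 3 in the methods' t-test and 3 to 26 without single arrays, with an adjusted count of 0 to 23. The share of all probes called was 9.05%, 1.97% and 3.95% to 45.2% in these settings, with an adjusted share of 0% to 40.1% without single arrays. Between DHI and Sham, 0 became 3 without scaling, 1 with normexp and 0 to 1 without single arrays. These are 6%, 2% and 0% to 2% of the Rab genes, against 7.11%, 5.65% and 1.45% to 10.6% of all probes. For regulators and effectors, 23 between DHI and I/R became 6 in the model of the 2 groups, 0 in the methods' t-test and 3 to 39 without single arrays. Their 3 calls between DHI and Sham became 8 without scaling, 1 with the authors' table, 1 with the filter on all 9 arrays, 1 in the model of the 2 groups, 0 in the methods' t-test and 0 to 9 without single arrays. Of all probes, 7.11%, 3.31%, 3%, 3.82%, 1.89% and 1.45% to 10.6% were called in the same order. The cause was not tested. The pairs whose differences did not overlap numbered 12 to 13 in I/R against Sham and 3 to 4 in DHI against I/R over the scaling and background alternatives.

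Same-numbered arrays of different groups had correlations from -0.341 to 0.476 over 9 pairs. These values cannot settle whether the numbers pair the samples, so a replicate block was fitted as an alternative. With the replicate block 24 Rab genes were called between I/R and Sham, 19 of them with the adjusted p, 16 between DHI and I/R and 1 between DHI and Sham. These are 48%, 38%, 32% and 2% of the Rab genes, against 43.8%, 35.5%, 26.6% and 5.39% of all probes.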

Other observations

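Rab-like genes outside the naming rule were read in the same fit, after the values of the Rab genes were known. Rabl5, a protein of transport within cilia, had log2 signals of -2.49, -2.60 and -1.65 in I/R against a Sham mean of -1.09, and -1.89, -0.96 and -1.20 in DHI. Rabl2b, also linked to cilia, had -2.36, -1.85 and -1.50 in I/R against a Sham mean of -1.11. Rab7l1, the former name of Rab29, had 1.85, 1.83 and 1.60 in I/R against a Sham mean of 1.31, short of a 1.5-fold change.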
